A study of Arabidopsis thaliana with 9 samples.

Results

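The 48 genes examined are Arabidopsis class III peroxidase genes that remain after the members tied to root hairs, the members known from the endodermis or falling in MYB36 mutants, and the members raised in those mutants are taken out of the family. They were chosen by locus, and a gene counted as measured when the array annotation paired a probe set (a group of probes read out as 1 value) with that gene alone. Of the 48, 43 were measured, each by 1 probe set, out of 64 measured among the 73 listed genes of the whole family and 16541 measured genes in the series. The other 5, RCI3, PER4, PRXCB, PA2 and PER64, were not analysed here, and of these PER64 is itself known from the Casparian strip. The division of the family drew on changes seen in these same 9 arrays, so strongly raised and falling genes had already been set aside, and a small number of changes among the rest is in part a property of that choice.

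Class III peroxidases are secreted, haem-containing plant enzymes that use hydrogen peroxide to oxidise phenolic compounds in the cell wall. They are best known for joining monolignols into lignin and for cross-linking wall proteins and phenolics, and they can also form reactive oxygen species, so that single members have been tied to wall stiffening, wall loosening, defence and growth. In the root endodermis a peroxidase, an NADPH oxidase and dirigent-type proteins together build the Casparian strip, a ring of lignin that seals the space between cells. MYB36 is the transcription factor known for switching on the genes of that strip.

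The 3 lines compared were each read on 3 Affymetrix arrays. The mutant lines were myb36-1 and myb36-2, both labelled as carrying a mutant MYB36 allele, and the wild type was Col-0. The labels state neither the kind of lesion in each allele nor whether the 3 arrays of a line were grown as separate cultures, so each p-value measures the spread between arrays only, which may be technical. All plants were 2 weeks old and had grown upright on MGRL nutrient plates set with 1.2% agar and holding 1% sucrose, at 22 °C with 16 h of light and 8 h of darkness, after 2 days in the cold. RNA came from whole roots, so fewer cells of a type and less RNA per cell cannot be told apart. The values are deposited log2 signals, and a difference of 1 on this scale is a doubling of signal.

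The arrays of myb36-2 sat on a higher scale than the others. The median over the 31325 tested probe sets was 5.30 to 5.34 on the myb36-2 arrays, against 5.07 to 5.09 on the myb36-1 arrays and 5.09 to 5.11 on the Col-0 arrays, and scale and line cannot be told apart here. Changes in myb36-2 are therefore given as deposited and, in most cases, again after quantile normalisation over all 9 arrays, called the common scale. No probe set was named for MYB36, so the line labels were not checked against its transcript. Markers of other cell types were thinly covered: 2 of 17 leaf photosynthesis genes, 2 of 6 root hair genes, 3 of 4 cortex genes, 1 of 10 endodermal genes and 0 of 8 xylem genes were measured. The log2 of the summed leaf marker signal was 7.58 to 7.69 in myb36-1, 7.55 to 7.74 in myb36-2 and 7.66 to 7.97 in Col-0, and that of the cortex markers was 7.34 to 7.76 in myb36-1, 7.49 to 7.88 in myb36-2 and 7.25 to 7.72 in Col-0. For the root hair markers it was 8.25 to 8.54 in myb36-1, 8.37 to 8.57 in myb36-2 and 8.21 to 8.54 in Col-0, and the endodermal marker lay at 8.72 to 8.91 in myb36-1, 8.69 to 8.75 in myb36-2 and 8.76 to 8.92 in Col-0. The ranges of the lines overlapped for the leaf, cortex and root hair lists, while the endodermal marker, AT4G28100, lay lower on all 3 myb36-2 arrays than on all 3 Col-0 arrays without being called (log2 change -0.12). RCA, a leaf marker, was called lower in myb36-2 on both scales (-0.50 as deposited). The other measured leaf marker, LHCB4.1, was not called on either scale (0.01 as deposited). Of the 3 measured cortex markers, 2 were called higher in myb36-2 as deposited, beside 19.3% of all tested probe sets. AT1G62510 rose by 0.78 and also passed on the common scale, and AT1G62500 rose by 0.63 and did not. The part of these markers in the results was not tested.

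The 43 probe sets covered nearly the whole range of the arrays. Their Col-0 means ran from 2.64 for AT1G77100 to 12.32 for PRXR1. By the mean over all 9 arrays, 15 lay under 4 on the log2 scale, 7 between 4 and 6, 7 between 6 and 8, and 14 at 8 or over. A level belongs to its probe set, whose probes bind with their own strength, so the order of the members is an order of signals and not of transcript amounts.

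**Figure D1:**
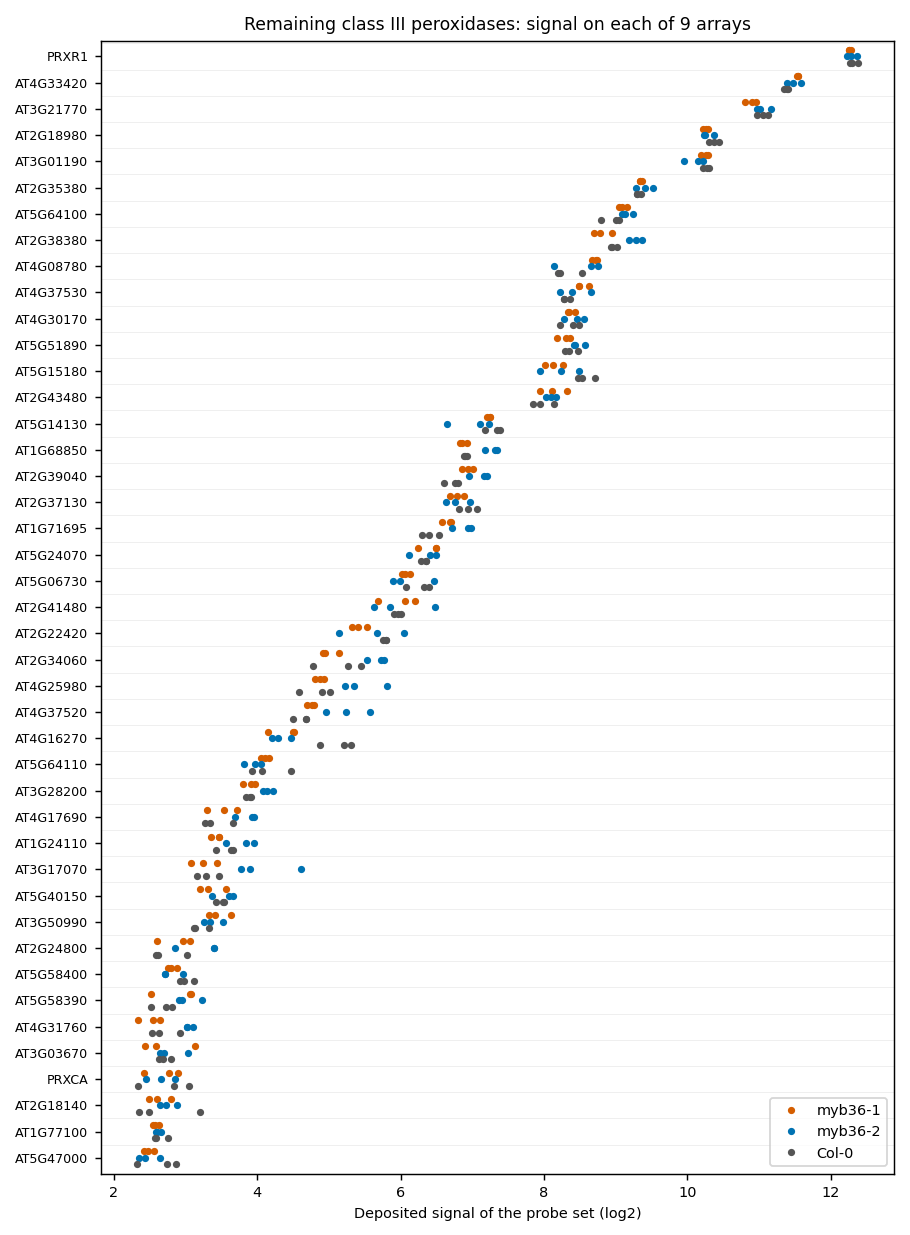
Deposited log2 signal (x axis) of the probe set of each of the 43 measured peroxidase genes (rows, ordered by the mean over 9 arrays), with 1 point per array for myb36-1 (orange), myb36-2 (blue) and Col-0 (grey). Points of the 3 lines sit close together for most genes, and AT4G16270 stands out with all 3 Col-0 points, from 4.88 to 5.32, to the right of all 6 mutant points, from 4.15 to 4.52.

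None of the 6 members of highest signal was called in either mutant as deposited or on the common scale. PRXR1, named in the reference as a peroxidase, gave 12.26, 12.26 and 12.29 on the myb36-1 arrays, 12.37, 12.28 and 12.22 on the myb36-2 arrays and 12.30, 12.38 and 12.27 on the Col-0 arrays. Its 9 values spanned 0.16, the narrowest span of the 43, against a median span of 0.59. The lines overlapped, and the log2 change was -0.05 (95% interval -0.22 to 0.12) in myb36-1 and -0.02 in myb36-2 on both scales (as deposited -0.19 to 0.14). AT4G33420 read 11.55, 11.53 and 11.54 in myb36-1, 11.47, 11.38 and 11.58 in myb36-2 and 11.39, 11.41 and 11.34 in Col-0. Here the myb36-1 arrays lay above all Col-0 arrays by a small margin, with a change of 0.16 that did not pass, and the change in myb36-2 was 0.09, or 0.06 on the common scale.

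AT3G21770 read 10.80, 10.96 and 10.90 in myb36-1, 11.01, 10.96 and 11.16 in myb36-2 and 10.97, 11.13 and 11.06 in Col-0. AT2G18980 read 10.29, 10.22 and 10.26 in myb36-1, 10.23, 10.24 and 10.37 in myb36-2 and 10.30, 10.45 and 10.38 in Col-0. In both genes every myb36-1 array lay just below every Col-0 array, with changes of -0.17 and -0.12 that did not pass, and the myb36-2 arrays overlapped Col-0. In myb36-2 AT3G21770 was at -0.01 as deposited and -0.05 on the common scale, and AT2G18980 at -0.09 and -0.18. Median centring of the arrays, another scaling, put AT2G18980 in myb36-2 at -0.31 with an adjusted p of 0.034 in limma. That setting moves every probe set of an array by the same amount. The median change in myb36-2 as deposited was 0.08 at a mean signal of 8 or over, against 0.16 over all tested probe sets. Whether this bears on the call of AT2G18980 was not tested.

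AT3G01190 read 10.28, 10.18 and 10.26 in myb36-1, 10.15, 9.95 and 10.21 in myb36-2 and 10.21, 10.30 and 10.27 in Col-0. AT2G35380 read 9.37, 9.34 and 9.34 in myb36-1, 9.41, 9.29 and 9.52 in myb36-2 and 9.30, 9.36 and 9.29 in Col-0. Their lines overlapped as deposited, with changes of -0.02 and 0.03 in myb36-1 and -0.16 and 0.09 in myb36-2. On the common scale all 3 myb36-2 arrays of AT3G01190 lay below Col-0, with a change of -0.24 (adjusted p 0.11 in limma), and AT2G35380 was at -0.02. Under median centring AT3G01190 was called lower in myb36-2, at -0.37 with an adjusted p of 0.029 in limma, and AT2G35380 was at -0.13. The median change of all tested probe sets in myb36-2 as deposited was 0.08 at a mean signal of 8 or over. Why the scalings differed for these genes was not tested.

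None of the 4 members of lowest Col-0 mean (AT1G77100, AT5G47000, AT2G18140 and AT5G58390) was called in either mutant as deposited or on the common scale. AT1G77100 read 2.57, 2.64 and 2.56 in myb36-1, 2.61, 2.66 and 2.59 in myb36-2 and 2.59, 2.57 and 2.75 in Col-0. AT5G47000 read 2.47, 2.56 and 2.43 in myb36-1, 2.44, 2.36 and 2.65 in myb36-2 and 2.33, 2.88 and 2.74 in Col-0. The lines overlapped in both genes, and on the common scale the 3 myb36-2 arrays of AT1G77100 lay below the Col-0 arrays (change -0.19, not passing). AT2G18140 read 2.60, 2.80 and 2.49 in myb36-1, 2.88, 2.74 and 2.65 in myb36-2 and 2.35, 3.20 and 2.49 in Col-0, so that 1 Col-0 array lay above all others.

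In myb36-1 none of the 43 members reached an adjusted p under 0.05 in limma against Col-0, beside 0.495% of all tested probe sets (0.227% higher and 0.268% lower). The count was again 0 on the common scale, beside 0.472% (0.23% higher and 0.243% lower). At an unadjusted p under 0.05 there were 5 members as deposited and 7 on the common scale. The share of all tested probe sets at that limit is not given, so these counts are descriptions only. The median change of the members was -0.04, against -0.01 over all tested probe sets, and the changes ran from -0.75 (AT4G16270) to 0.39 (AT4G08780). As deposited, the 95% interval lay within 0.5 log2 units of 0 on both sides (a factor of 1.41) for 32 of the 43 and within 1 unit (a factor of 2) for 42, so for the other 11 and 1 a change past these limits was not excluded by the interval.

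Where arrays did separate, the direction was mixed. In myb36-1 the 3 arrays lay above all Col-0 arrays in 6 members and below them in 6, which is 27.9% of the members, beside 18.2% of all tested probe sets (8.36% above and 9.87% below). The 6 higher were AT1G71695, AT2G39040, AT4G08780, AT4G33420, AT4G37520 and AT4G37530, and the 6 lower were AT2G18980, AT2G22420, AT3G21770, AT4G16270, AT5G15180 and AT5G58400. The numbers were 6 and 8 on the common scale, or 32.6% of the members, beside 18.1% (8.6% above and 9.46% below). No member among these passed the adjusted test.

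AT4G16270 showed the largest difference from Col-0 of any member in both mutants. Its signal was 4.50, 4.52 and 4.15 on the myb36-1 arrays, 4.29, 4.47 and 4.21 on the myb36-2 arrays and 5.21, 5.32 and 4.88 on the Col-0 arrays. All 6 mutant arrays lay below all 3 Col-0 arrays, and the mutants overlapped each other. The change was -0.81 ± 0.14 (SE, n = 3 arrays per line) in myb36-2, with an adjusted p of 0.0066 in limma, and -1.06 ± 0.14 on the common scale, with an adjusted p of 0.0037. In myb36-1 the change was -0.75 ± 0.14, with a 95% interval of -1.07 to -0.43 and an adjusted p of 0.074 in limma, and -0.73 on the common scale with an adjusted p of 0.075. The adjusted p in myb36-1 ran from 0.024 to 0.22 over the alternatives tried, and it passed only where the replicate number entered the fit.

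The mutants themselves differed in AT4G16270 by 0.06 (myb36-1 minus myb36-2, 95% interval -0.26 to 0.38) as deposited and by 0.34 on the common scale, with adjusted p in limma of 0.80 and 0.22. The myb36-2 fall was called in all 9 fits that left out 1 array, as deposited (highest adjusted p 0.025) and on the common scale (highest adjusted p 0.017). For the mean of both mutants the change was -0.78 ± 0.12 with an adjusted p of 0.012 in limma, and this call did not survive the removal of Col-0 replicate 1 or of Col-0 replicate 2 (adjusted p of at most 0.056), while on the common scale it was kept in all 9 such fits. The probe set averaged 4.62 over the 9 arrays, in a band where 4.13% of tested probe sets were called lower in myb36-2 as deposited.

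In myb36-2, 10 of the 43 members were called against Col-0 as deposited, which is 23.3%, beside 21.3% of all tested probe sets. Of these 9 were higher, beside 19.3%, and 1, AT4G16270, was lower, beside 2.02%. After quantile normalisation 0 members were called higher, beside 4.66%, and 4 were called lower, beside 5.39%, together 9.3% against 10.1%. Only AT4G16270 was called on both scales. Median centring called 0 members higher and 7 lower. At an unadjusted p under 0.05 there were 14 members as deposited and 14 on the common scale. Shares of all tested probe sets are not given for these counts, which are descriptions only. At an adjusted p under 0.05 the shares of members called lay near those of all probe sets as deposited and on the common scale.

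**Figure D2:**
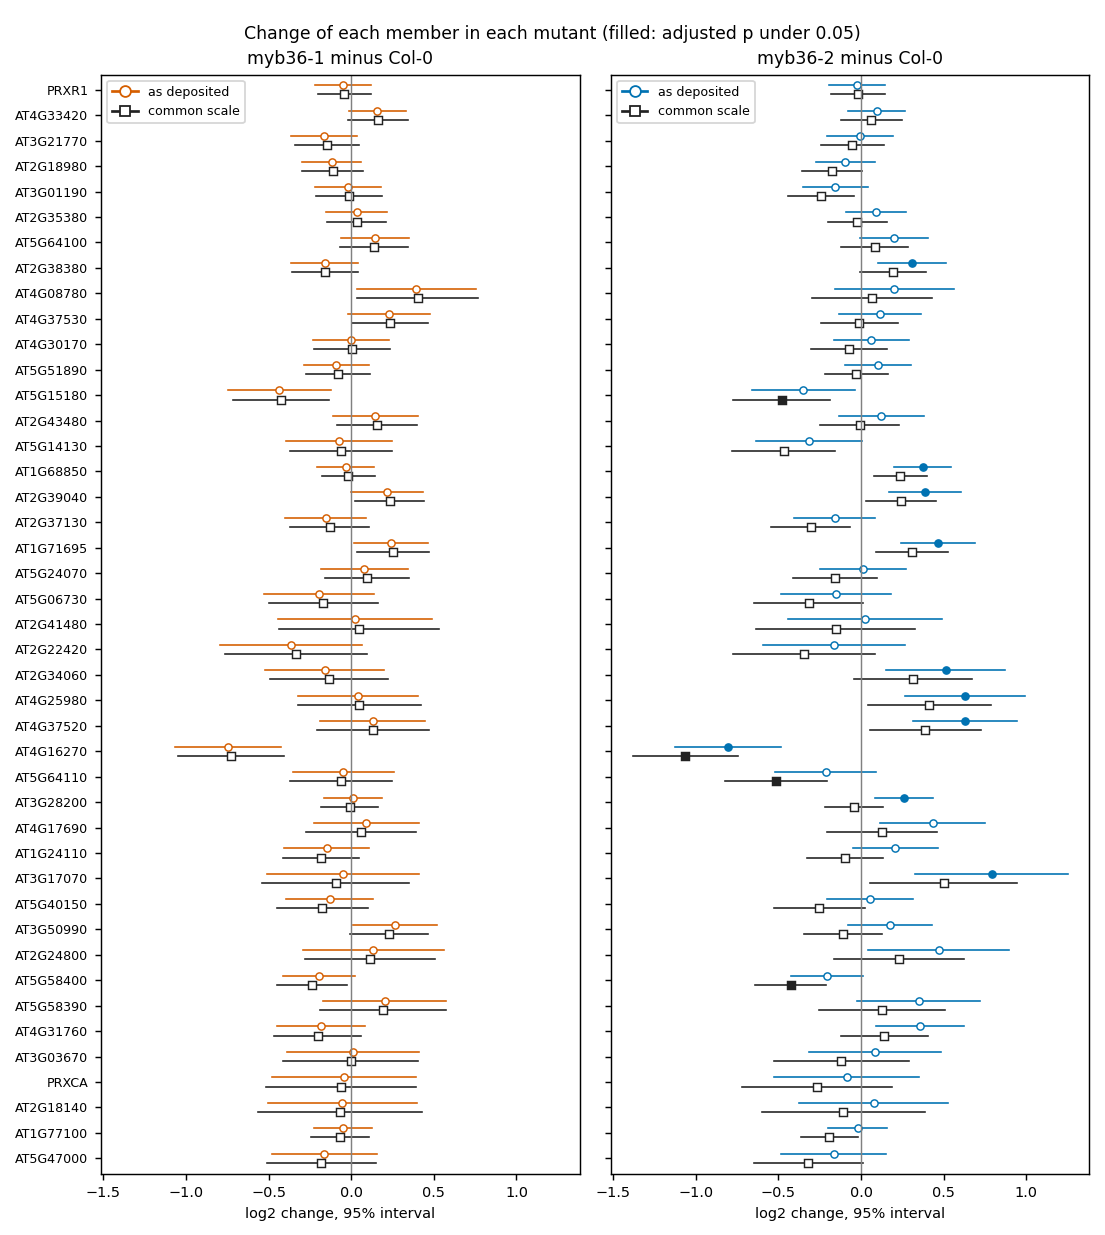
Log2 change with its 95% interval (x axis) for each of the 43 members (rows, in the order of signal), in myb36-1 (left) and myb36-2 (right) against Col-0, as deposited (coloured circles) and on the common scale (black squares), with filled symbols for an adjusted p under 0.05. In myb36-1 the circles and squares nearly coincide and none is filled. In myb36-2 nearly all squares lie to the left of their circles, and 9 circles are filled to the right of 0. AT4G16270 is filled on both scales to the left, and AT5G15180, AT5G58400 and AT5G64110 are filled there on the common scale only.

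The change of scale moved the myb36-2 values as a group. As deposited 28 of 43 members had a positive change, and on the common scale 15 did, with 13 turning from positive to negative and 0 the other way. In myb36-1 the numbers were 18 and 17. The median change of the members in myb36-2 was 0.09 as deposited, against 0.16 over all tested probe sets, and -0.05 on the common scale, against -0.01. The myb36-2 arrays lay above all Col-0 arrays in 13 members and below them in 1, or 32.6% beside 41.1% of all tested probe sets (35.9% above and 5.23% below). They lay above in 7 and below in 10 on the common scale, or 39.5% beside 32.1% (14.8% above and 17.3% below).

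**Figure D3:**
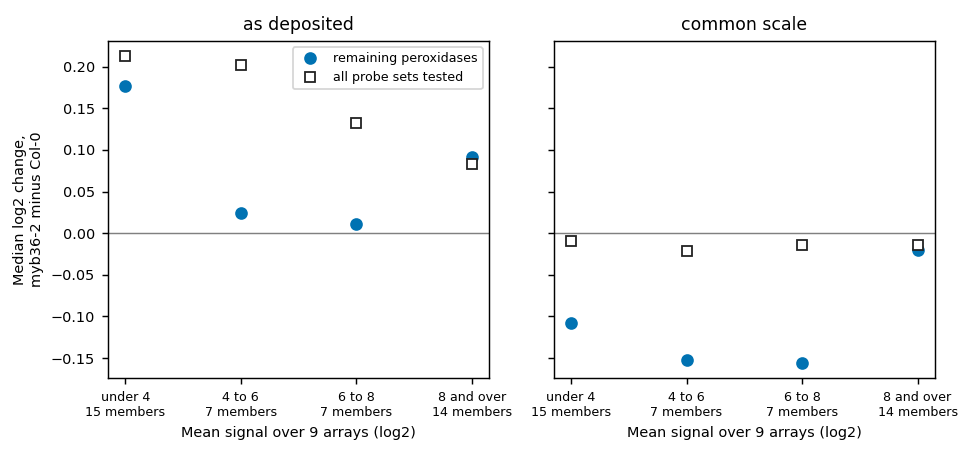
Median log2 change in myb36-2 against Col-0 (y axis) in 4 bands of mean signal over 9 arrays (x axis, log2), for the remaining peroxidases (filled circles, with their number under each band) and for all tested probe sets (open squares), as deposited (left) and on the common scale (right). As deposited the squares fall from 0.21 in the dimmest band to 0.08 in the brightest, and on the common scale they lie near 0, with every circle below its square.

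The shift depended on signal. Over all tested probe sets the median change in myb36-2 was 0.21 under a mean signal of 4, 0.20 between 4 and 6, 0.13 between 6 and 8 and 0.08 at 8 or over. The members in the same bands had medians of 0.18, 0.02, 0.01 and 0.09. The members' medians on the common scale were -0.11, -0.15, -0.16 and -0.02, while those of all tested probe sets lay between -0.02 and -0.01. With 7 to 15 members a band, these medians are descriptions only.

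The 9 members called higher in myb36-2 as deposited had changes of 0.26 to 0.79. AT1G68850 read 6.83, 6.93 and 6.86 in myb36-1, 7.32, 7.18 and 7.34 in myb36-2 and 6.88, 6.93 and 6.90 in Col-0. All myb36-2 arrays lay above the 6 others, by a rise of 0.37 ± 0.08 (adjusted p 0.011 in limma), and the myb36-1 arrays overlapped Col-0. AT1G71695 read 6.57, 6.69 and 6.70 in myb36-1, 6.94, 6.72 and 6.98 in myb36-2 and 6.40, 6.30 and 6.54 in Col-0. Both mutants lay above Col-0 on every array, and the change was 0.47 ± 0.10 (adjusted p 0.013) in myb36-2 and 0.24 ± 0.10 (adjusted p 0.43) in myb36-1. These 2 rises were called in all 9 fits that left out 1 array, with a highest adjusted p of 0.038 for AT1G68850 and 0.046 for AT1G71695, but on the common scale they were 0.24 and 0.31 with adjusted p of 0.064 and 0.073.

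AT3G17070 had the largest of the 9 rises. It read 3.25, 3.44 and 3.08 in myb36-1, 3.77, 4.61 and 3.91 in myb36-2 and 3.29, 3.16 and 3.47 in Col-0. All myb36-2 arrays lay above the rest, with the second array far above the other 2, and the change was 0.79 ± 0.20 (adjusted p 0.026 in limma). It was 0.50 on the common scale (adjusted p 0.14) and 0.53 without myb36-2 replicate 2. It was not called when Col-0 replicate 1 or 2 was left out (adjusted p of at most 0.081).

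AT4G37520 read 4.77, 4.79 and 4.70 in myb36-1, 5.57, 4.96 and 5.24 in myb36-2 and 4.50, 4.69 and 4.68 in Col-0. AT4G25980 read 4.94, 4.81 and 4.88 in myb36-1, 5.23, 5.82 and 5.35 in myb36-2 and 4.59, 4.91 and 5.01 in Col-0. Each of these had all myb36-2 arrays above the 6 others and a change of 0.63, with adjusted p of 0.015 and 0.025 in limma. The changes on the common scale were 0.39 and 0.41, with adjusted p of 0.13 and 0.14. The first was not called when Col-0 replicate 1 was left out (adjusted p 0.050), nor AT4G25980 when Col-0 replicate 1 or 2 or myb36-2 replicate 2 was (at most 0.077).

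AT2G34060 read 4.92, 5.14 and 4.95 in myb36-1, 5.73, 5.76 and 5.53 in myb36-2 and 5.44, 5.26 and 4.78 in Col-0. AT2G38380 read 8.69, 8.95 and 8.77 in myb36-1, 9.18, 9.29 and 9.36 in myb36-2 and 8.94, 9.02 and 8.94 in Col-0. In both, myb36-2 lay highest and myb36-1 overlapped Col-0, with changes in myb36-2 of 0.51 (adjusted p 0.049 in limma) and 0.31 (adjusted p 0.041). AT2G39040 read 7.02, 6.94 and 6.85 in myb36-1, 7.17, 6.95 and 7.20 in myb36-2 and 6.61, 6.76 and 6.79 in Col-0. Every mutant array lay above every Col-0 array, by 0.39 in myb36-2 (adjusted p 0.023) and by 0.22 in myb36-1, which did not pass. AT3G28200 read 3.92, 3.97 and 3.81 in myb36-1, 4.09, 4.22 and 4.14 in myb36-2 and 3.85, 3.92 and 3.90 in Col-0. The myb36-2 arrays stood above the others by 0.26 (adjusted p 0.043), and on the common scale the sign turned, to -0.04.

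These 4 calls were lost in 4 to 9 of the 9 fits with 1 array fewer, and their changes stayed positive in each. With 1 array left out, AT2G34060 kept its call in 1 of 9 fits (that without Col-0 replicate 1, highest adjusted p 0.13), AT2G38380 in 3 of 9 (those without myb36-1 replicate 1, myb36-1 replicate 2 or myb36-2 replicate 1, highest 0.11), AT2G39040 in 5 of 9 (the exceptions being Col-0 replicates 1 and 2 and myb36-2 replicates 1 and 3, highest 0.073) and AT3G28200 in 0 of 9 (highest 0.11). The changes in those fits ran from 0.32 to 0.65 for AT2G34060, from 0.27 to 0.36 for AT2G38380, from 0.33 to 0.47 for AT2G39040 and from 0.23 to 0.29 for AT3G28200. Across the members, the 10 calls of myb36-2 became 4 with Col-0 replicate 1 left out, 5 with Col-0 replicate 2 left out and 6 with myb36-2 replicate 2 left out. Quantile normalisation put AT2G34060, AT2G38380 and AT2G39040 at 0.31, 0.19 and 0.24 with adjusted p of 0.24, 0.20 and 0.13.

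**Figure D4:**
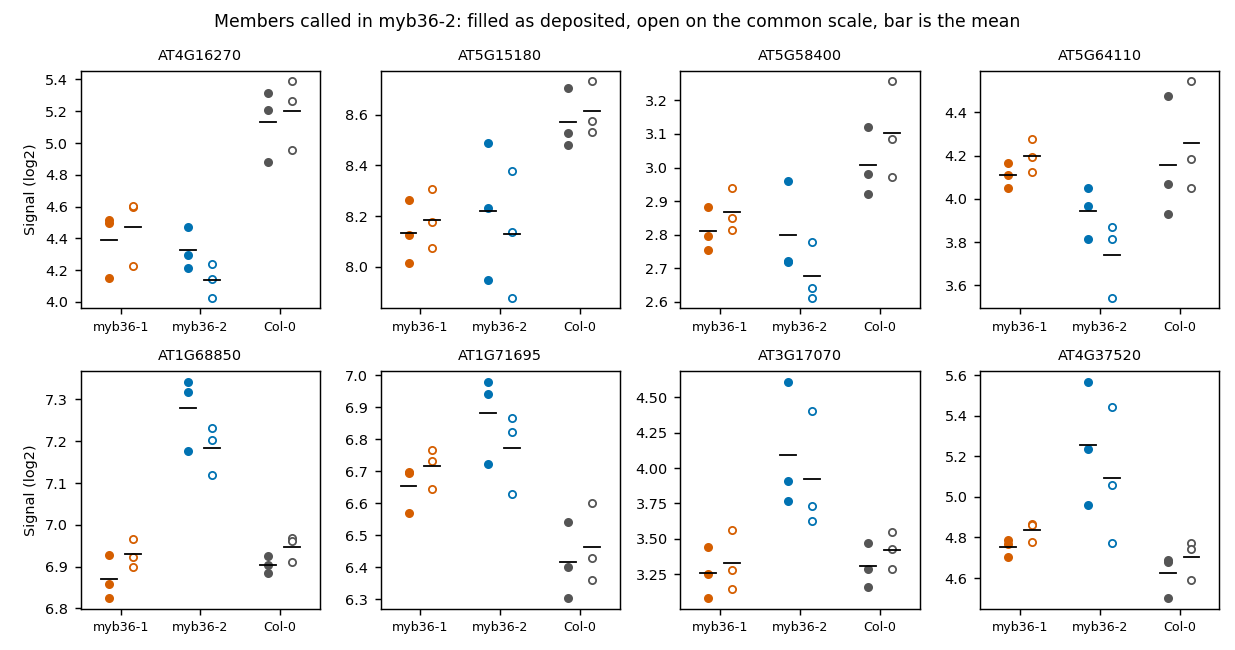
Log2 signal (y axis, its own range in each panel) on each array of myb36-1 (orange), myb36-2 (blue) and Col-0 (grey) for 8 members called in myb36-2 on at least 1 scale, as deposited (filled points) and on the common scale (open points), with bars for means of 3 arrays. AT4G16270 separates both mutants from Col-0 on both scales, and in AT1G68850 the open blue points, from 7.12 to 7.23, move toward the open grey points, from 6.91 to 6.97.

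Apart from AT4G16270, the members called lower in myb36-2 on the common scale were AT5G15180, AT5G58400 and AT5G64110. AT5G15180 read 8.01, 8.26 and 8.12 in myb36-1, 8.49, 7.95 and 8.23 in myb36-2 and 8.53, 8.71 and 8.48 in Col-0 as deposited. The myb36-1 arrays lay below Col-0 and the myb36-2 arrays overlapped it, with changes of -0.44 (95% interval -0.75 to -0.13, adjusted p 0.29 in limma) and -0.35 (adjusted p 0.10). After quantile normalisation it read 8.08, 8.31 and 8.18 in myb36-1, 8.38, 7.88 and 8.14 in myb36-2 and 8.57, 8.73 and 8.53 in Col-0. There both mutants lay below Col-0 on every array, and the change in myb36-2 was -0.48 ± 0.13 with an adjusted p of 0.047.

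AT5G64110 read 4.19, 4.28 and 4.12 in myb36-1, 3.82, 3.54 and 3.87 in myb36-2 and 4.05, 4.18 and 4.54 in Col-0 on the common scale. Only the myb36-2 arrays stood below Col-0, with a change of -0.52 ± 0.14 (adjusted p 0.046 in limma), against -0.21 as deposited. AT5G58400 read 2.82, 2.85 and 2.94 in myb36-1, 2.64, 2.78 and 2.61 in myb36-2 and 3.26, 3.08 and 2.97 in Col-0 on that scale, near the dim end. Every mutant array lay below every Col-0 array, by -0.43 ± 0.09 in myb36-2 (adjusted p 0.024) and by -0.24 in myb36-1, which did not pass. With 1 array left out on the common scale, AT5G15180 kept its call in 1 of 9 fits (that without myb36-2 replicate 1, highest adjusted p 0.13), AT5G64110 in 1 of 9 (that without Col-0 replicate 1, highest 0.13) and AT5G58400 in 5 of 9 (the exceptions being Col-0 replicates 1 and 2 and myb36-2 replicates 1 and 3, highest 0.072).

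No member was called in the same direction in myb36-1 and in myb36-2 on either scale, beside 0.418% of all tested probe sets as deposited (0.223% higher and 0.195% lower). Quantile normalisation made the share 0.415% (0.214% higher and 0.201% lower). The comparisons of both mutants use the same 3 Col-0 arrays. With the mutants averaged and set against Col-0, 2 members were called as deposited, beside 5.32% of all tested probe sets (4.38% higher and 0.948% lower), AT4G16270 lower and AT1G71695 higher (0.35 ± 0.09, adjusted p 0.049 in limma). The call of AT1G71695 was kept in 1 of 9 fits with 1 array left out, that without myb36-2 replicate 2 (highest adjusted p 0.17). Only AT4G16270 was called on the common scale, with a change of -0.90, beside 3.2% of all tested probe sets (1.51% higher and 1.69% lower). Without myb36-2 replicate 2 the count as deposited was 4, and without Col-0 replicate 1 or 2 it was 0.

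Set directly against each other, the mutants differed as deposited in 7 members, all lower in myb36-1, or 16.3% beside 15.4% of all tested probe sets (0.926% higher and 14.5% lower in myb36-1). They were AT3G17070 (myb36-1 minus myb36-2, -0.84), AT2G34060 (-0.67), AT4G25980 (-0.59), AT4G31760 (-0.54), AT4G37520 (-0.50), AT2G38380 (-0.47) and AT1G68850 (-0.41). AT4G31760 was not called against Col-0 in either mutant, and it read 2.55, 2.64 and 2.34 in myb36-1, 3.02, 3.03 and 3.10 in myb36-2 and 2.53, 2.63 and 2.92 in Col-0. The mutants differed in 0 members on the common scale, beside 4.15% of all tested probe sets (2.19% higher and 1.97% lower in myb36-1). At an unadjusted p under 0.05 there were 11, a count given without its share of all tested probe sets. On that scale the lowest adjusted p in limma was 0.062, for AT2G38380 (-0.35). The median difference of the members was -0.06 as deposited, against -0.17 over all tested probe sets, and 0.06 on the common scale, against 0.01. The arrays of the mutants did not overlap in 13 members, 1 higher and 12 lower in myb36-1, or 30.2% beside 38.0% (3.22% higher and 34.8% lower). After quantile normalisation they were apart in 13 members too, 7 of them higher and 6 lower in myb36-1, or 30.2% beside 26.1% (14.2% higher and 12.0% lower).

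Among the measured members 4 carry a name in the reference table, and the other 39 are given by locus only. PRXCA (AT3G49110, also PRX33), known for the apoplastic oxidative burst in defence, read 2.43, 2.78 and 2.89 in myb36-1, 2.46, 2.66 and 2.86 in myb36-2 and 2.84, 2.34 and 3.05 in Col-0. The lines overlapped throughout at this low signal, with changes of -0.04 (95% interval -0.48 to 0.40) in myb36-1 and -0.09 (-0.53 to 0.35) in myb36-2. PRX25 (AT2G41480), known from work on stem lignin, read 6.20, 6.07 and 5.69 in myb36-1, 6.48, 5.85 and 5.63 in myb36-2 and 5.90, 6.01 and 5.97 in Col-0. The mutant arrays scattered on both sides of the tight Col-0 values, and the change was 0.02 in each mutant, with a 95% interval of -0.45 to 0.49 in myb36-1 and -0.44 to 0.49 in myb36-2, and -0.15 in myb36-2 on the common scale. PER36 (AT3G50990), known for loosening the outer wall of seed coat cells so that mucilage is released, read 3.42, 3.33 and 3.64 in myb36-1, 3.25, 3.53 and 3.35 in myb36-2 and 3.13, 3.33 and 3.14 in Col-0. Its change was 0.26 in myb36-1 and 0.18 in myb36-2, neither passing, and the myb36-2 change was -0.11 on the common scale.

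AT5G51890, AT2G37130 and AT2G22420 were also examined in full. AT5G51890 read 8.31, 8.18 and 8.36 in myb36-1, 8.43, 8.42 and 8.57 in myb36-2 and 8.35, 8.47 and 8.29 in Col-0. AT2G37130 read 6.69, 6.78 and 6.89 in myb36-1, 6.76, 6.63 and 6.96 in myb36-2 and 6.94, 6.82 and 7.07 in Col-0. Both mutants overlapped Col-0 as deposited, with changes between -0.16 and 0.10, while all myb36-1 arrays of AT5G51890 lay below all its myb36-2 arrays (the mutants' difference did not pass). On the common scale AT5G51890 in myb36-2 was at -0.03, and all myb36-2 arrays of AT2G37130 lay below Col-0, at -0.30 (adjusted p 0.10 in limma). Median centring, which moves every probe set of an array by the same amount, called AT2G37130 lower in myb36-2, at -0.38 with an adjusted p of 0.046 in limma. AT2G22420 read 5.33, 5.41 and 5.53 in myb36-1, 5.14, 6.05 and 5.67 in myb36-2 and 5.79, 5.76 and 5.80 in Col-0. Every myb36-1 array lay below Col-0, with a change of -0.36 and a 95% interval of -0.80 to 0.07, while the myb36-2 arrays spread over 0.91 and lay on both sides.

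Several members sit beside another peroxidase gene in the gene order of the reference. In 3 neighbour pairs both genes belong to the remaining set and were measured. AT4G37520 was called higher in myb36-2 as deposited and its neighbour AT4G37530 was not, with changes of 0.63 and 0.12. AT4G37530 read 8.62, 8.49 and 8.49 in myb36-1, 8.65, 8.23 and 8.40 in myb36-2 and 8.28, 8.36 and 8.28 in Col-0, so that its myb36-1 arrays lay above Col-0 by 0.23 without passing, and on the common scale its change in myb36-2 was -0.01. AT5G58390 read 2.52, 3.08 and 3.07 in myb36-1, 2.91, 3.24 and 2.96 in myb36-2 and 2.52, 2.81 and 2.73 in Col-0. Its changes of 0.20 in myb36-1 and 0.35 in myb36-2 stand beside -0.20 and -0.21 in AT5G58400, and none of the 4 passed as deposited. AT5G64100 lay at 9.04 to 9.16 in myb36-1, 9.08 to 9.24 in myb36-2 and 8.80 to 9.05 in Col-0, so that only the myb36-2 arrays were clear of Col-0. Its changes were 0.14 in myb36-1 and 0.20 in myb36-2 (0.08 on the common scale), beside -0.05 and -0.21 in AT5G64110.

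**Figure D5:**
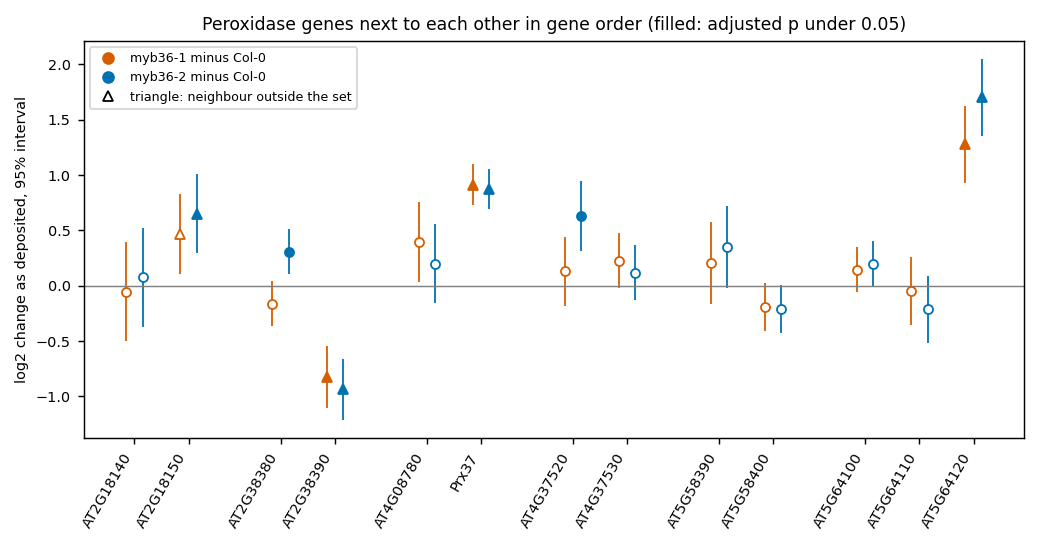
Log2 change as deposited with its 95% interval (y axis) in myb36-1 (orange) and myb36-2 (blue) against Col-0, for peroxidase genes that lie next to each other in gene order (x axis, grouped by neighbourhood), with circles for the remaining set, triangles for neighbours outside it and filled symbols for an adjusted p under 0.05. The triangles of AT2G38390, Prx37 and AT5G64120 lie far from 0 in both mutants, from -0.94 to 1.70, while the circles beside them lie between -0.21 and 0.39.

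In 4 further pairs the neighbour belongs to the genes set aside, which were chosen for such changes, so the contrast within a pair is a description. AT2G38390 fell by 0.83 in myb36-1 and 0.94 in myb36-2, and its neighbour AT2G38380 was at -0.16 in myb36-1 and, called as deposited, at 0.31 in myb36-2. Prx37 (AT4G08770) rose by 0.91 in myb36-1 and 0.87 in myb36-2, while AT4G08780 was at 0.39 and 0.20 without passing. AT4G08780 read 8.74, 8.67 and 8.72 in myb36-1, 8.76, 8.65 and 8.14 in myb36-2 and 8.19, 8.22 and 8.53 in Col-0, and its myb36-1 arrays lay above all Col-0 arrays. AT5G64120 (PRX71) rose by 1.28 in myb36-1 and 1.70 in myb36-2, beside -0.05 and -0.21 in AT5G64110. AT2G18150 was at 0.47 in myb36-1, which did not pass, and was called higher by 0.65 in myb36-2 as deposited, beside -0.05 and 0.08 in AT2G18140. Neighbouring copies can be alike in sequence, and whether a probe set also read its neighbour was not tested.

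The members not yet described gave changes of -0.32 to 0.47 as deposited, and none was called in either mutant on either scale. AT5G14130 read 7.20, 7.25 and 7.25 in myb36-1, 7.23, 6.64 and 7.11 in myb36-2 and 7.39, 7.35 and 7.18 in Col-0. The second myb36-2 array lay far below the rest, and the change in myb36-2 was -0.32 as deposited and -0.47 on the common scale (adjusted p 0.062 in limma). AT2G24800 read 2.96, 2.60 and 3.07 in myb36-1, 3.40, 3.39 and 2.85 in myb36-2 and 2.59, 2.62 and 3.03 in Col-0, and AT4G17690 read 3.54, 3.72 and 3.30 in myb36-1, 3.69, 3.93 and 3.96 in myb36-2 and 3.35, 3.66 and 3.28 in Col-0. Their changes in myb36-2 were 0.47 and 0.43 as deposited and 0.23 and 0.13 on the common scale. AT5G06730 was at -0.19 in myb36-1 and -0.15 in myb36-2, AT1G24110 at -0.15 and 0.21, and AT5G40150 at -0.13 and 0.05. On the common scale these 3 were at -0.32, -0.10 and -0.25 in myb36-2. AT2G43480, AT5G24070, AT4G30170 and AT3G03670 lay between -0.00 and 0.15 in each mutant as deposited, and between -0.16 and -0.01 in myb36-2 on the common scale.

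Arrays of myb36-1 differed less in these genes than over all tested probe sets, and those of myb36-2 and Col-0 about as much. The median SD of the members over the 3 arrays was 0.0811 in myb36-1, 0.139 in myb36-2 and 0.115 in Col-0, against 0.121 in myb36-1, 0.135 in myb36-2 and 0.124 in Col-0 over all tested probe sets. A member's 95% interval reached a median of 0.261 log2 units to either side of its change when 2 lines were compared as deposited.

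The 21 measured genes among the 25 set aside were chosen in part for changes in these arrays, and their counts are given only as a frame. As deposited 5 of the 21 were called higher and 3 lower in myb36-1, beside 0.227% and 0.268% of all tested probe sets. In myb36-2 12 were called higher and 4 lower, beside 19.3% and 2.02%. The counts on the common scale were 5 higher and 2 lower in myb36-1, beside 0.23% and 0.243%. For myb36-2 they were 8 higher and 4 lower, beside 4.66% and 5.39%. Their median change as deposited was 0.29 in myb36-1 and 0.56 in myb36-2, beside -0.01 and 0.16 over all tested probe sets. In the remaining 43 it was -0.04 and 0.09. The family was divided in part by such changes, so this gap is a description only.

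Genes that supply or consume the hydrogen peroxide used by these enzymes, and genes that supply or polymerise monolignols, were thinly covered. Of 10 respiratory burst oxidase genes, which encode the NADPH oxidases that make superoxide, 2 were measured. AT4G25090 was at 0.40 in myb36-1, which did not pass, and was called higher by 0.63 in myb36-2, or 0.50 on the common scale, where it also passed. AT4G11230 was at 0.30 in myb36-1 and rose by 0.48 in myb36-2 as deposited, and was at 0.31 on the common scale without passing. Of 8 superoxide dismutase genes, whose products turn superoxide into hydrogen peroxide, 1 was measured, AT3G56350, which rose by 0.62 in myb36-2 as deposited and was at 0.39 on the common scale without passing.

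Of 11 catalase and ascorbate peroxidase genes, whose products break hydrogen peroxide down, 2 were measured. SAPX was at 0.40 in myb36-1 and rose by 0.55 in myb36-2, or 0.41 on the common scale, and TAPX was at -0.07 and -0.13 without passing. Among 17 laccase genes, which encode the other class of enzymes known for polymerising monolignols, 2 were measured, and AT5G01050 rose by 0.61 in myb36-2 as deposited and was at 0.31 on the common scale without passing. LAC16 was at -0.36 in myb36-1 and -0.05 in myb36-2. Of 19 monolignol synthesis genes 2 were measured, and HCT and CCR2 did not pass in either mutant, with changes of 0.13 and 0.11 in myb36-1 and 0.09 and 0.18 in myb36-2. AT3G56350 and AT5G01050 averaged 2.86 and 3.42 over the 9 arrays. In the band under 4, 21.9% of tested probe sets were called higher in myb36-2 as deposited. No gene of these 5 lists was called in myb36-1, beside 0.495% of all tested probe sets as deposited.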

How the data were processed

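Root RNA was read on 9 arrays, 3 per line. The deposited values are log2 signals; the submitters' processing notes name RMA, a method that subtracts background, equalises arrays and sums up the probes of a set. The labels give neither its version nor whether all arrays went through it together. Of 38408 probe sets, 7083 in a leading block with no gene were left out and 31325 tested. Of these, 16715 matched 1 gene of the reference table (TAIR10.1), which served for naming and for neighbours, and the brightest probe set stood for a gene. The fit used limma 3.58.1 under R 4.3.3, with a mean for each line and empirical Bayes moderation, two-sided, with Benjamini-Hochberg adjustment over all tested probe sets and calls at an adjusted p under 0.05. It was checked on simulated data. For the common scale the deposited values of the 9 arrays were quantile normalised together.

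The members and gene lists were chosen with earlier results of these data known. Values by array were given by rule for 22 members (called in both mutants, in myb36-1 or in myb36-2 on both scales, highest or lowest signal, neighbours, or known in the field), and 9 others with calls were singled out after their values were seen; the rest are described for completeness. Alternatives covered scaling, a filter on dim signals, the choice of probe set, array weights, the lines in the fit, a replicate block and each array left out. Each member had 1 probe set, so the choice of probe set could not change its values. Leaving out arrays on the common scale was added after seeing the data. With 3 arrays per line the precision is limited.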

Additional observations from a re-analysis of the deposited data

Results flagged for a closer look

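Between the mutants 7 members differed as deposited in the direct contrast of limma. Their differences (myb36-1 minus myb36-2, log2) were -0.84 for AT3G17070, -0.67 for AT2G34060, -0.59 for AT4G25980, -0.54 for AT4G31760, -0.50 for AT4G37520, -0.47 for AT2G38380 and -0.41 for AT1G68850. All were lower in myb36-1, and the 7 are 16.3% of the members, beside 15.4% of all tested probe sets (14.5% lower in myb36-1), whose median difference was -0.17. On the common scale none of the 7 passed. There 11 of the 43 members were at an unadjusted p under 0.05, a count given without its share of all tested probe sets. With 1 array left out as deposited, AT1G68850 and AT2G38380 kept the call in 9 of 9 fits, AT3G17070 and AT4G31760 in 7, AT2G34060 in 5, AT4G25980 in 3 and AT4G37520 in 1. The scale of the arrays moves with the line, and the 2 cannot be told apart.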

How the results depend on the processing

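Scaling, the arrays kept and the replicate block each moved counts. In myb36-2 the count went from 10 (9 higher, 1 lower) to 4 on the common scale (all lower) and 7 after median centring (all lower). The direct contrast went from 7, all lower in myb36-1, to 0 on the common scale. Median centring called 1 member higher and 0 lower in myb36-1 in that contrast, so none of the 7 was kept as lower. The mean of both mutants went from 2 to 1 under either scaling and 1 with all deposited probe sets. That last setting called 7 members in myb36-2 (6 higher, 1 lower) and 5 in the direct contrast. Under it AT2G34060, AT2G38380 and AT3G28200 were not called in myb36-2 (adjusted p 0.075, 0.062 and 0.063 in limma). With dim probe sets (mean under 5) left out, 25 members were tested, and AT4G16270 (mean 4.62) was not among them. Of the 25, 6 were called in myb36-2, all higher, and 4 in the direct contrast. Fits of only the lines compared gave 6 and 4. Shares over all tested probe sets are given only as deposited and on the common scale, so counts under other settings are descriptions only. The labels state no pairing by replicate number. Deviations of same-numbered arrays correlated at -0.19 to 0.09, and those of differently numbered arrays at -0.17 to 0.17. These weak correlations cannot settle whether the arrays were paired. With the replicate block, 1 member (AT4G16270, adjusted p 0.024 in limma) was called in myb36-1 and so in both mutants, and 1 in the mean. With the replicate block on the common scale the counts were 1 in myb36-1, 2 in myb36-2, 1 in both, 1 in the mean and 0 in the direct contrast. With each array left out, myb36-2 calls ran from 4 to 8 as deposited and from 1 to 3 on the common scale, those of the mean from 0 to 4 and from 1 to 2, those of the direct contrast from 2 to 6 and 0 throughout, and those of myb36-1 and of both mutants stayed at 0. The myb36-2 change of AT3G28200, 0.26 as deposited, was -0.043 on the common scale, also with the replicate block, and ran from -0.055 to 0.29 over the fits with 1 array left out on either scale. For the members followed one by one, 23 other values from settings that kept all arrays turned sign without being called under either setting. The causes were not tested. With 3 arrays per line every interval is limited.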
